A study of Mus musculus with 6 samples.

Results

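The genes described here are 9 members of the Serpinb family of intracellular protease inhibitors: Serpinb1a, Serpinb2, Serpinb3a, Serpinb3c, Serpinb8, Serpinb9b, Serpinb11, Serpinb12 and Serpinb13. They were taken from the deposited table of 15643 genes by an exact match of the gene symbol, and they are 9 of the 18 family members in that table. The table came from mature medullary epithelium of the thymus (sorted mTEChi) from mice of the NOD strain, which is prone to autoimmune diabetes, at 4.5 weeks of age. The assay was MARS-seq, in which each captured 3′ transcript end carries a unique molecular identifier (UMI) and is counted once. Of the 6 libraries, 3 were labelled Aire+/+ (numbers 745, 750 and 753) and 3 were labelled Aire-/- (numbers 746, 748 and 749), and both groups share strain, age and sort. The comparison addresses which transcripts of these cells differ with the genotype of Aire, a transcriptional regulator that promotes the expression of many tissue-restricted genes in the thymus. The labels name no allele, and no label ties a library number to an animal or a pool, so errors and p-values measure the spread between libraries only. The 9 genes were chosen by their UMI counts in Aire+/+ against Aire-/-, the same contrast that is described below, so their own values are a description, given with standard errors and without p-values.

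Clade B serpins lack a classical secretion signal and act mainly inside the cell. An exposed stretch, the reactive centre loop, serves as bait: a protease that cuts it is trapped, usually as a covalent complex, when the loop folds into the body of the serpin. The family is best known from squamous epithelia and leukocytes, where it protects cells from their own serine and cysteine proteases, and mature medullary thymic epithelium holds cells that resemble several such peripheral tissues.

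The loop largely sets which proteases a family member meets, and it is shown here for the 3 near copies Serpinb3a, Serpinb3b and Serpinb3c. The stretch below is the coding DNA from the hinge of the loop to just before the conserved serpin signature, in the GENCODE transcripts of build GRCm38, 5′ to 3′. Capitals mark bases that differ from Serpinb3a or do not align to it, and Serpinb2, the only member that was higher in Aire-/-, is shown for contrast.
Serpinb3a: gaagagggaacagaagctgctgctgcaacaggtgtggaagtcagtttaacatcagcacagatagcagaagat
Serpinb3b: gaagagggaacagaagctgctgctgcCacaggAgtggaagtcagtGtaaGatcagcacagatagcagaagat
Serpinb3c: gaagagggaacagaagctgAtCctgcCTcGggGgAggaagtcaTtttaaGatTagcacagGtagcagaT
Serpinb2: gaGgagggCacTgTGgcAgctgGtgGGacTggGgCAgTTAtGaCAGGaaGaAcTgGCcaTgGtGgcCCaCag
Of 72 bases, Serpinb3b differed from Serpinb3a at 4 (94.4% identity), whereas Serpinb3c differed at 12 of 69 aligned bases (82.6%) and Serpinb2 at 30 of 70 (57.1%). Over the whole coding sequence, Serpinb3a and Serpinb3c were 91.5% identical, the highest of the 36 pairs of members, against a median of 60.6% and a lowest value of 57.0%. The last 300 bases of their transcripts, which a 3′ count reads, were 93.0% identical between Serpinb3a and Serpinb3c and 91.0% between Serpinb3a and Serpinb3b, so the split of UMIs among these genes is uncertain. The 3′ end of Serpinb9b was 90.1% identical to that of Serpinb9, and the same limit holds there. Reads that match several genes were handled in a way not given in the sources used here.

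Library totals were 2736932 to 2887321 UMIs in Aire+/+ and 1014581 to 1960802 in Aire-/-, and the 9 members together made up 0.0618% to 0.0828% of the UMIs of a library. Levels are given as CPM, counts relative to the library total, scaled by edgeR's TMM factors. Where a gene has 0 UMIs, up to 3 could have been missed, equal to 1.04 to 1.10 CPM in Aire+/+ and 1.53 to 2.96 CPM in Aire-/- before that scaling. Such floors and the counting intervals below cover counting error only. Aire itself had 6290, 6783 and 7290 UMIs in the libraries labelled Aire+/+ and 4772, 8298 and 8372 in those labelled Aire-/-. Its scaled level was higher in Aire-/-, at 4827 ± 333 CPM against 2250 ± 192 CPM (SD, n = 3 each, log2 fold change 1.10, SE 0.14, edgeR adjusted p = 7.76e-05). A 3′ tag outside the deleted part of a gene does not check the knockout. Gapdh was nearly missing from 1 library of each genotype, with 90 UMIs in 753 and 28 in 746 against 2245 to 4166 in the others. Of the 8 mature medullary markers, 4 rose in Aire-/- (H2-Aa, Cd74, Cd80 and Aire itself) and none fell, and Epcam did not pass the test (log2 fold change 0.01, edgeR adjusted p = 0.974). In such sorted bulk samples, fewer cells of a type and less RNA per cell cannot be told apart.

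Of the 9 members, 8 were lower in Aire-/- than in Aire+/+ and 1, Serpinb2, was higher, all at an edgeR adjusted p up to 0.05. Among the 11956 genes tested, 12.1% were called lower, 8.59% higher and 20.7% either way. The members' count follows from how they were chosen, and nothing is read from it. Their median log2 fold change was -2.34, with Serpinb3c and Serpinb13 at their bounds or not, against -0.02 over all genes tested. For 8 of the 9 members, all but Serpinb1a, no library of 1 genotype fell within the range of the other, where the share over all genes tested was 36.5%. Without library 745 the number of members called lower was 3 of the 7 then tested, without 750 it was 5 of 7, without 753 it was 5 and without 746 it was 5. Without both libraries that lacked Gapdh (753 and 746) it was 4, and Serpinb2 was called higher each time.

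**Figure D1:**
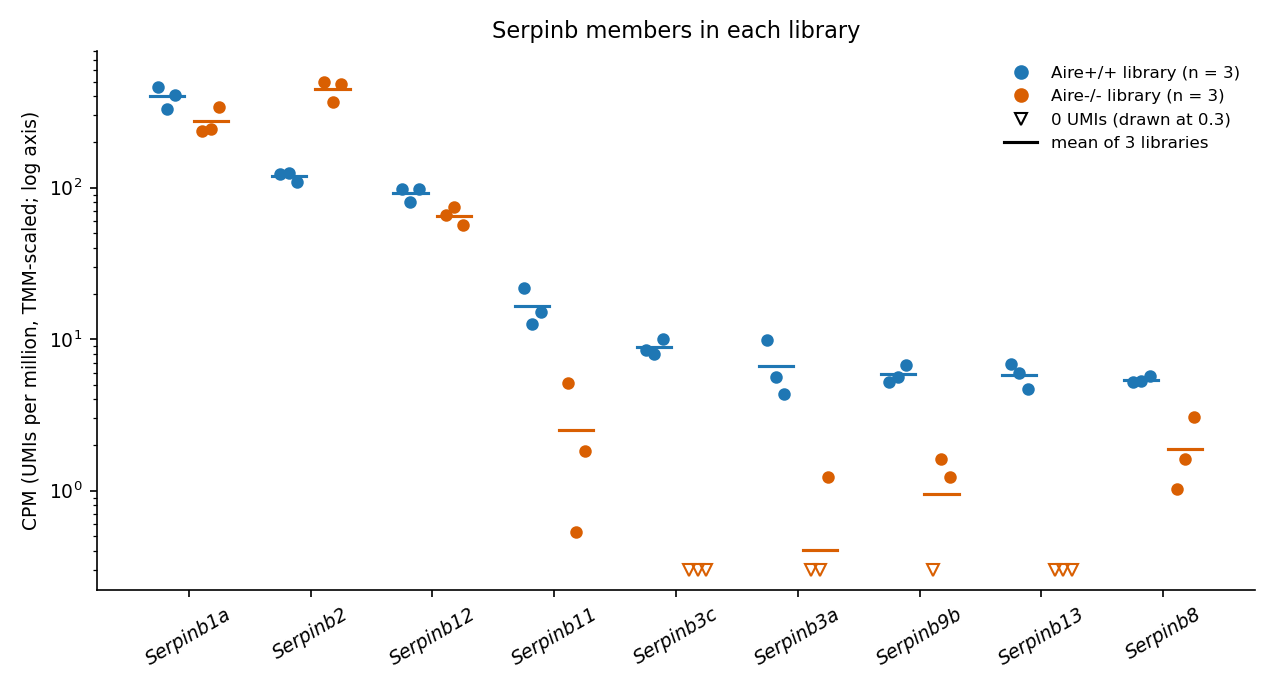
CPM (y axis, log scale) of each of the 9 members (x axis) in the 3 Aire+/+ and 3 Aire-/- libraries; points are libraries, lines are group means, and open triangles at the bottom are libraries with 0 UMIs. Serpinb2 is higher in every Aire-/- library, Serpinb1a overlaps between genotypes, and Serpinb3c and Serpinb13 are at 0 in Aire-/-.

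Serpinb2, known as plasminogen activator inhibitor type 2 and induced in stressed or inflamed epithelium and macrophages, was the member that went the other way. It was counted at 375, 379 and 325 UMIs in Aire+/+ (745, 750 and 753) and 483, 681 and 784 UMIs in Aire-/- (746, 748 and 749), the order in which libraries are given throughout. Every Aire-/- library held more UMIs than any Aire+/+ library, although all of the Aire-/- libraries were smaller. Scaled, this was 119 ± 8.73 CPM (SD, n = 3) in Aire+/+ against 447 ± 70.5 CPM (n = 3) in Aire-/-, 3.75-fold higher (log2 fold change 1.91, SE 0.15). The summed level of the 9 leukocyte markers was also higher in each Aire-/- library, at 1468 to 2418 CPM against 1273 to 1397 CPM, although none of the 8 tested passed the test. Of that sum most came from Lyz2, with 3224 to 3526 UMIs in Aire+/+ and 1281 to 3469 in Aire-/- (log2 fold change 0.52, edgeR adjusted p = 0.0631). Markers of cortical epithelium moved the same way, and those of stroma did so less evenly. The 3 cortical markers all rose, with a summed level of 134 to 257 CPM in Aire+/+ and 401 to 501 CPM in Aire-/-. The 4 stroma markers in the table summed to 41.3 to 49.5 CPM and 52.6 to 237 CPM. Of the 3 tested, 1 rose, Col3a1, with 43, 22 and 17 UMIs in Aire+/+ and 190, 69 and 14 in Aire-/-. Its libraries overlapped between genotypes, and in library 746 it made up 195 CPM of the stroma sum. The 6 markers of tuft-like epithelial cells summed to 46.7 to 70.0 CPM in Aire+/+ and 59.9 to 126 CPM in Aire-/-, which overlap. Of the 4 tested, 1 rose, Trpm5, and 0 fell. Dclk1, too low to test, went the other way, with 19, 21 and 11 UMIs in Aire+/+ and 1, 4 and 1 in Aire-/-. Its levels were 3.69 to 6.94 CPM against 0.611 to 2.15 CPM and did not overlap. Pou2f3, also too low to test, had 6, 6 and 4 UMIs against 7, 3 and 4. Its levels of 1.34 to 1.98 CPM and 1.61 to 7.19 CPM overlapped. The part of all these cells in the Serpinb2 level was not tested.

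Serpinb1a, the mouse counterpart of the inhibitor of neutrophil elastase, cathepsin G and proteinase 3, was moderately lower. It had 1415, 1002 and 1225 UMIs in Aire+/+ and 231, 454 and 553 in Aire-/-. The means were 402 ± 67.0 CPM and 273 ± 56.3 CPM (SD, n = 3 each), which gave -0.55 as the log2 fold change (SE 0.17). The groups overlapped, since the lowest Aire+/+ library (750, 331 CPM) lay below the highest Aire-/- library (749, 338 CPM). The call was lost without 745, without 753, without 746 and without 748, each left out in turn. Neutrophil markers moved with it: Mpo, Ly6g, Camp and Ltf, which was all 4 of the list in the table, fell in Aire-/-, and their summed level was 163 to 276 CPM in Aire+/+ and 4.28 to 12.3 CPM in Aire-/-. Ly6g was at 0 in 2 of the Aire-/- libraries. The leukocyte markers did not fall with them: none of the 8 tested passed the test, and their median log2 fold change was 0.20. Which cells the neutrophil marker transcripts came from was not tested, nor was their part in the Serpinb1a difference.

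Serpinb3a, Serpinb3c and Serpinb13 belong to the branch of the family whose members, the squamous cell carcinoma antigens and hurpin in human, are found in stratified epithelia and can block lysosomal cysteine cathepsins. Serpinb3c had 26, 24 and 30 UMIs in Aire+/+ and 0 in every Aire-/- library. Against the floor of 3 UMIs over the group, it was at least 13.2-fold lower in Aire-/-. Serpinb13 had 21, 18 and 14 UMIs in Aire+/+ and likewise 0 in all Aire-/- libraries, at least 8.72-fold lower. Scaled to the depth of the smallest library, 746, the Aire+/+ libraries would have held 8.58 to 10.5 UMIs of Serpinb3c and 4.92 to 7.79 of Serpinb13.

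Serpinb3a had 30, 17 and 13 UMIs in Aire+/+ and 0, 0 and 2 in Aire-/-, so its only UMIs in Aire-/- came from library 749. The pooled ratio of Aire+/+ to Aire-/- was 14.8, with a 95% Clopper-Pearson counting interval of 3.92 to 125. Serpinb3b, a family member outside the 9, had 6, 6 and 5 UMIs in Aire+/+ and 0 in every Aire-/- library (at least 2.80-fold lower), but was too low for the filter on low counts. Because UMIs may have been split among the 3 copies, their sum is the safer measure. It was 20.3, 15.5 and 16.1 CPM in Aire+/+ and 0, 0 and 1.22 CPM in Aire-/-, and the groups did not overlap. The gene model of Serpinb3b also overlaps that of Serpinb3c on the same strand. UMIs counted for neither gene would be missing from the sum as well.

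Serpinb11 and Serpinb12 are epithelial members whose proteins act on trypsin-like proteases in mouse or human. Serpinb11 had 66, 38 and 45 UMIs in Aire+/+ and 5, 1 and 3 in Aire-/-. Its level was 16.4 ± 4.69 CPM against 2.50 ± 2.37 CPM (SD, n = 3 each), which gave -2.96 as the log2 fold change (SE 0.51), and its call held under all 12 alternative settings. Serpinb12 had 300, 244 and 291 UMIs in Aire+/+ and 64, 138 and 92 in Aire-/-. This gave 92.2 ± 10.1 CPM against 65.4 ± 9.0 CPM, a log2 fold change of -0.49 (SE 0.16). The Serpinb12 libraries lay close at the edge, with the lowest Aire+/+ library at 80.6 CPM and the highest Aire-/- library at 74.2 CPM. Its call was lost in 6 of the 12 settings, among them DESeq2 and leaving out 745, 753, 746 or 749.

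Keratinocyte markers moved with these 5 epithelial members, Serpinb3a, Serpinb3c, Serpinb11, Serpinb12 and Serpinb13. Of the 11 on the list in the table, 7 fell in Aire-/- and none rose, with a summed level of 1621 to 1850 CPM in Aire+/+ and 554 to 1097 CPM in Aire-/-. Krt1, a keratin of differentiating epidermis, had 257, 206 and 184 UMIs in Aire+/+ and 10, 14 and 14 in Aire-/- (log2 fold change -3.05, SE 0.22, edgeR adjusted p = 1.59e-06). Lor, a late marker of the cornified layer, had 139, 210 and 150 UMIs against 99, 33 and 80 and did not pass the test (log2 fold change -0.08, edgeR adjusted p = 0.921). None of the 11 was at 0 in a whole genotype, and their part in the members' difference was not tested. The 5 markers of microfold-like epithelial cells also summed lower, at 457 to 488 CPM in Aire+/+ and 371 to 380 CPM in Aire-/-. Of these 5, 2 fell (Gp2 and Ccl20) and 0 rose, and their part was not tested either.

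Serpinb8, whose human counterpart can inhibit the proprotein convertase furin, had 16, 16 and 17 UMIs in Aire+/+ and 1, 3 and 5 in Aire-/-. The Aire+/+ libraries were nearly alike at 5.41 ± 0.25 CPM (SD, n = 3), against 1.90 ± 1.04 CPM in Aire-/- (log2 fold change -1.41, SE 0.46). The call was kept in 3 of the 12 settings. With all libraries kept, it was lost under DESeq2, with a looser filter on low counts and with no filter. It was also lost without 745, 750, 753, 746 or 748, and without 753 and 746 together. The log2 fold change ran from -1.90 to -1.18. Serpinb9b belongs to the mouse-expanded group around Serpinb9, the granzyme B inhibitor that protects cytotoxic cells from their own granules. It had 16, 17 and 20 UMIs in Aire+/+ and 0, 3 and 2 in Aire-/- (log2 fold change -2.34, SE 0.55), with a pooled ratio of 5.23 and a counting interval of 2.11 to 16.8. An antisense gene model, Gm36099, overlaps it and was not used here, and the strand setting of the counting is not given in the sources used here.

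**Figure D2:**
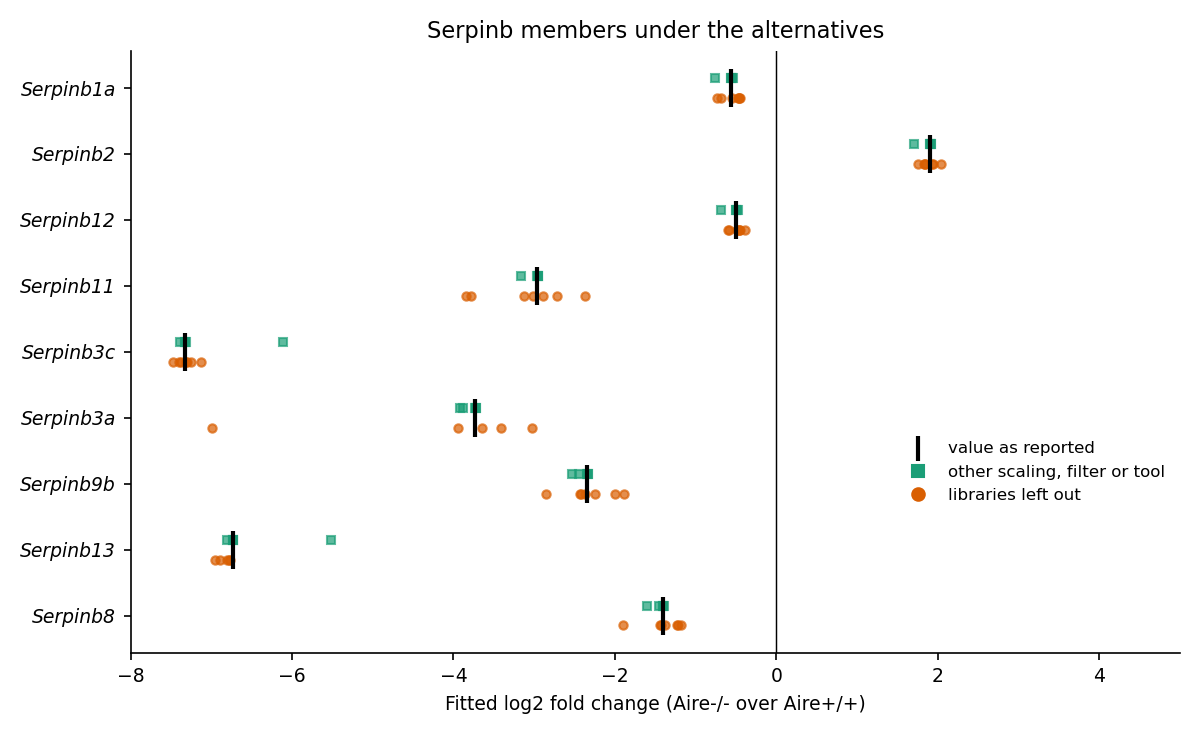
Fitted log2 fold change (x axis, Aire-/- over Aire+/+) of each member under 12 other settings: squares for other scalings, filters or tools, circles for fits without 1 or more libraries, and a black bar for the value as reported. Every value stays on its side of 0; fitted values of Serpinb3c and Serpinb13 depend on the prior count, since both are at 0 in Aire-/-.

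The summed level of the members did not separate the genotypes, while its make-up did. The 9 members together gave 743, 580 and 665 CPM in Aire+/+ and 805, 689 and 881 CPM in Aire-/-, and the groups overlapped. Without Serpinb2, the other 8 summed to 543 ± 83.3 CPM in Aire+/+ and 344 ± 50.1 CPM in Aire-/- (SD, n = 3 each), with ranges of 455 to 620 and 309 to 402 CPM. Leaving out Serpinb1a as well gave 141 ± 16.3 CPM against 71.1 ± 7.24 CPM. Each library also gives its own composition, which needs no scaling between libraries. Of the members' UMIs, Serpinb1a made up 60.5% ± 2.95 in Aire+/+ and 34.4% ± 4.54 in Aire-/-, and Serpinb2 made up 18.2% ± 2.95 and 56.4% ± 4.54 (SD, n = 3 each). Serpinb12 went from 13.9% ± 0.73 to 8.44% ± 2.21, and the other 6 members together from 7.38% ± 0.35 to 0.715% ± 0.149. There were 0.265, 0.378 and 0.265 UMIs of Serpinb2 per UMI of Serpinb1a in Aire+/+ and 2.09, 1.5 and 1.42 in Aire-/-, so the more abundant of these 2 tags changed from Serpinb1a to Serpinb2 in every library. A share within the members shows unequal change and not which gene changed. Because the members were chosen by this contrast, a shift of shares toward Serpinb2 follows from that choice and is only described.

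**Figure D3:**
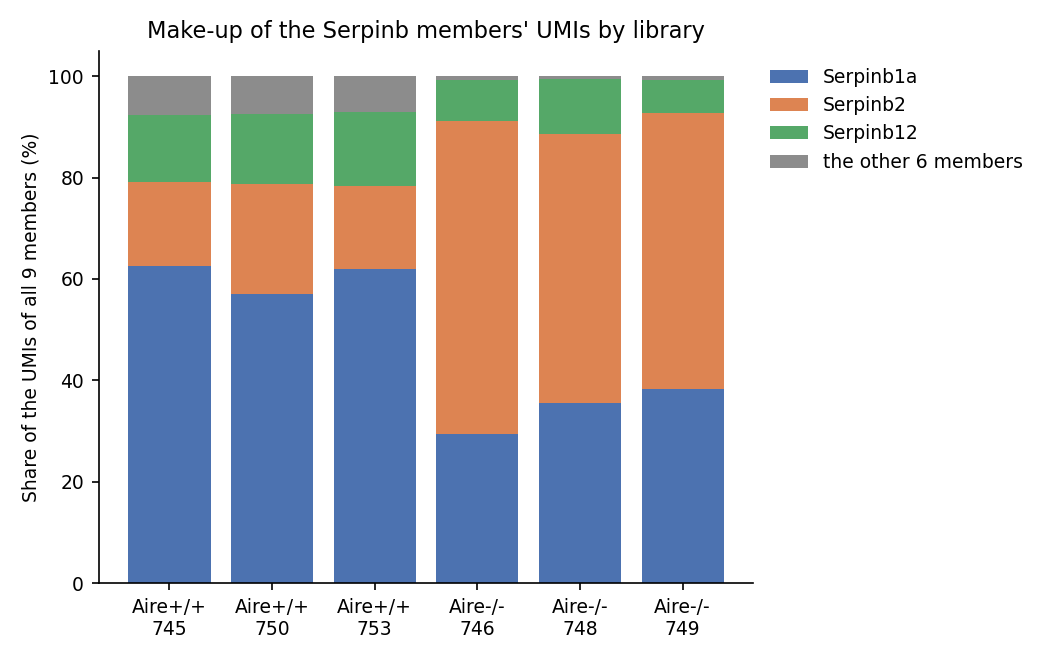
Share of the members' UMIs (y axis, percent, from 0 to 100) taken by Serpinb1a, Serpinb2, Serpinb12 and the other 6 members together in each of the 6 libraries (x axis), stacked. Serpinb1a takes the most in the 3 Aire+/+ libraries and Serpinb2 in the 3 Aire-/- libraries, at 53.2% to 61.6%.

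The 9 members sit in 2 clusters of Serpinb genes of build mm10. The cluster on chromosome 1 (chr1:106861173-107610484, 749.3 kb) holds 12 such genes, of which 10 were in the table and 7 are members. The cluster on chromosome 13 (chr13:32842092-34002794, 1160.7 kb) holds 15 genes with a Serpinb symbol in the GENCODE annotation, of which 8 were in the table and 2 are members, Serpinb1a (chr13:32842092-32851185, minus strand) and Serpinb9b (chr13:33027416-33041884, plus strand). The promoter table places a further gene, Serpinb9h, within the same interval. Along chromosome 1 the measured genes run Serpinb12, Serpinb13, Serpinb3a, Serpinb3b, Serpinb3c, Serpinb11, Serpinb7, Serpinb2, Serpinb10 and Serpinb8. Serpinb2 (chr1:107511423-107535478, plus strand) therefore lies between members that were lower, 130.9 kb beyond the end of Serpinb11 (chr1:107361198-107380475) and 54.5 kb before Serpinb8 (chr1:107590006-107610484). Between Serpinb11 and Serpinb2 lies Serpinb7, an epidermal member with 20, 18 and 25 UMIs in Aire+/+ and 7, 13 and 18 in Aire-/-, which did not pass the test (log2 fold change 0.28, SE 0.34, edgeR adjusted p = 0.616). The gene model of Serpinb10 overlaps the end of Serpinb2 on the same strand. Serpinb10 had 13, 6 and 6 UMIs in Aire+/+ and 1, 6 and 1 in Aire-/-, with a pooled ratio of 1.54 and a counting interval of 0.67 to 3.96.

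On chromosome 13, Serpinb9b and its neighbour Serpinb9 lie 9.5 kb apart. Serpinb9 had 130, 95 and 124 UMIs in Aire+/+ and 12, 87 and 174 in Aire-/-, a wide spread of 12.3 to 106 CPM among the Aire-/- libraries, and did not pass the test (log2 fold change 0.59, edgeR adjusted p = 0.386). Without 746 it was called higher (log2 fold change 0.98, edgeR adjusted p = 0.0165), and without 749 its log2 fold change was -0.23 (edgeR adjusted p = 0.661). The nearest measured genes outside the clusters did not pass the test. These were Vps4b before the cluster on chromosome 1 (log2 fold change 0.10, edgeR adjusted p = 0.767) and Dsel after it (-0.81, 0.228), and Wrnip1 before the cluster on chromosome 13 (0.32, 0.283) and Bphl after it (0.25, 0.328). Dsel is far from its cluster: it starts at chr1:111858702, whereas the cluster ends at chr1:107610484. No gene close to that end was measured. Of all listed flanking genes tested, 1 of 3 beside the cluster on chromosome 1 rose and 0 of 6 beside that on chromosome 13 passed the test. Below the filter, Mylk4, a kinase gene beside the cluster on chromosome 13, had 6, 6 and 8 UMIs in Aire+/+ and 0 in every Aire-/- library (at least 3.29-fold lower). The gene that rose was Bcl2, an inhibitor of apoptosis, with 53, 51 and 58 UMIs against 29, 55 and 42 (log2 fold change 0.66, SE 0.20, edgeR adjusted p = 0.0316), and its call was lost in 8 of the 12 settings, where the adjusted p was 0.0522 to 0.134.

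**Figure D4:**
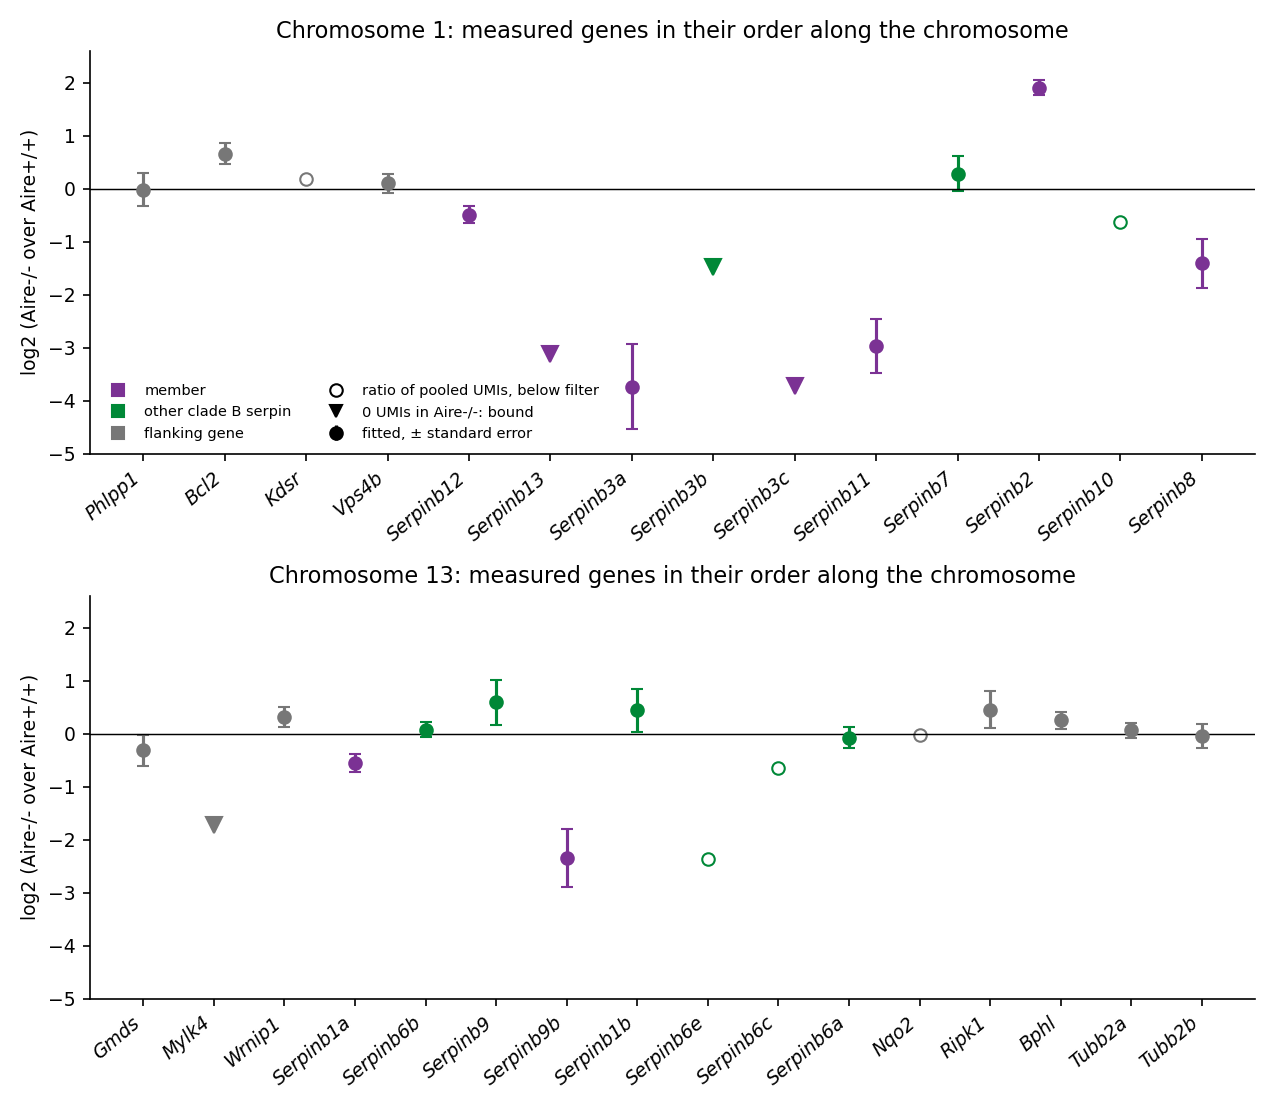
Log2 fold change (y axis, Aire-/- over Aire+/+) of the measured genes of each cluster and of flanking genes, in their order along the chromosome (x axis, not to scale); filled circles are fitted values ± SE, triangles are bounds for genes at 0 in Aire-/-, and open circles are ratios of pooled UMIs of genes below the filter. Serpinb2, at 1.91, stands above Serpinb7 and Serpinb10, the measured genes directly beside it, and above Serpinb11 and Serpinb8, the nearest members. Serpinb7, at 0.28, was not called, and Serpinb10 was below the filter.

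Of the other family members, 9 were in the table and 5 passed the filter, and edgeR called 0 of these 5. At an unadjusted p under 0.05 the count was also 0, and DESeq2 called 0. This contrast with the 9 members reflects how the members were picked. The median log2 fold change of the 5 was 0.28. Serpinb6a and Serpinb6b, close to the human inhibitor of cathepsin G, trypsin-like and other serine proteases in many tissues, were the most counted of them. Serpinb6a had 794, 732 and 791 UMIs against 153, 438 and 541 (log2 fold change -0.07, edgeR adjusted p = 0.845), and Serpinb6b had 458, 366 and 437 against 142, 245 and 264 (0.07, 0.784). Serpinb1b, a near relative of Serpinb1a, had 20, 19 and 24 UMIs against 4, 14 and 25 (log2 fold change 0.44, SE 0.40, edgeR adjusted p = 0.500). Below the filter, Serpinb6e had 6, 7 and 8 UMIs against 0, 0 and 2, a pooled ratio of 5.18 (counting interval 1.27 to 45.6), and Serpinb6c had 12, 4 and 3 against 0, 5 and 1. The other 10 listed family members had no row in the deposited table and so were not analysed here.

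In the authors' deposited table, 6 of the 9 members were among the selected genes (Serpinb2, Serpinb3a, Serpinb3c, Serpinb9b, Serpinb11 and Serpinb13), where 9.42% of all genes were selected. Serpinb1a, Serpinb8 and Serpinb12, with log2 fold changes of Aire+/+ over Aire-/- of 0.54, 1.44 and 0.48 in the authors' deposited table, were not selected. None of the 9 other family members was selected in the authors' deposited table.

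Proteases that clade B serpins can act on were listed as well. Of 17 listed, 16 were in the table and 11 were tested: 7 fell in Aire-/-, 2 rose and 2 did not pass the test. Over all genes tested, 12.1% were called lower and 8.59% higher. Of the 7, 5 had 0 UMIs in Aire-/- (Ctsg, Cma1, Gzmb, Prss1 and Prss2). These 5 passed the filter through Aire+/+ alone, so they could only be called lower. The median log2 fold change was -4.58, or -2.75 with the genes at 0 in Aire-/- at their bounds, against -0.02 over all genes tested. The list was drawn up with results of these data known, and its counts stand as a description.

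Of the proteases of granules of myeloid and cytotoxic cells, targets of Serpinb1a and of the group around Serpinb9, the 4 that were tested had 0 to 2 UMIs in each Aire-/- library. Cma1, mast cell chymase, had 84, 79 and 90 UMIs in Aire+/+ and 0 in all Aire-/- libraries, at least 41.6-fold lower (edgeR adjusted p = 5.97e-06). Gzmb, granzyme B, had 24, 40 and 33 UMIs against 0, at least 16.0-fold lower (edgeR adjusted p = 0.000211), and Ctsg, cathepsin G, had 14, 13 and 14 against 0, at least 6.74-fold lower (edgeR adjusted p = 0.0012). Prtn3, proteinase 3, had 26, 48 and 34 UMIs against 0, 2 and 0 (log2 fold change -4.58, SE 0.68, edgeR adjusted p = 0.00035). Gzmm, granzyme M, was below the filter, with 9, 10 and 11 UMIs against 1, 3 and 2, a pooled ratio of 2.47 (counting interval 1.01 to 7.25). For comparison, Serpinb1a was 0.55 lower on the log2 scale and Serpinb9 did not pass the test. The neutrophil markers given beside Serpinb1a moved with these proteases, and their part was not tested.

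The trypsins Prss1 and Prss2, digestive enzymes of the pancreas and of the class that Serpinb11 and Serpinb12 meet, had 68 to 107 and 109 to 156 UMIs in Aire+/+ and 0 in Aire-/-. They were at least 40.3-fold and 65.1-fold lower (edgeR adjusted p = 2.15e-05 and 2.86e-06). Klk8, a trypsin-like kallikrein of the epidermis, fell less, from 46.0 ± 9.01 CPM to 20.7 ± 9.17 CPM (SD, n = 3 each, log2 fold change -1.24, edgeR adjusted p = 0.00476).

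Plat, the tissue-type plasminogen activator that Serpinb2 can inhibit, rose together with it. It had 130, 186 and 173 UMIs in Aire+/+ and 156, 223 and 189 in Aire-/-, which is 54.1 ± 10 CPM against 132 ± 24.6 CPM (SD, n = 3 each, log2 fold change 1.27, SE 0.18, edgeR adjusted p = 0.000239). Plau, the urokinase-type activator and the best-known target of Serpinb2, had 7, 6 and 3 UMIs against 2, 1 and 0 and was too low to test. The other protease that rose was F2, prothrombin, with 19, 31 and 42 UMIs against 22, 31 and 43 (log2 fold change 1.09, edgeR adjusted p = 0.0274), a call lost in 4 of the 12 settings (adjusted p 0.0523 to 0.110). Furin, the convertase named beside Serpinb8, had 101, 168 and 169 UMIs against 39, 61 and 31 and did not pass the test (log2 fold change -0.70, SE 0.27, edgeR adjusted p = 0.0897), although it was called lower in 3 settings (adjusted p 0.0304 to 0.0346). Of the cysteine cathepsins, Ctss had 1272 to 1397 UMIs against 342 to 1283 (log2 fold change 0.22, edgeR adjusted p = 0.582). Ctsl, with 8, 3 and 2 against 0, 3 and 6, and Ctsk, with 14, 5 and 8 against 1, 0 and 0, were too low to test. Their pooled ratios of Aire+/+ to Aire-/- were 0.71 for Ctsl (counting interval 0.28 to 1.89) and 13.3 for Ctsk (2.20 to 546).

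Protease inhibitors of epithelia from other families showed both directions as well. Of 18 listed, 12 were in the table and 10 were tested: 5 fell, 1 rose and 4 did not pass the test, with a median log2 fold change of -1.21. Over all genes tested, 12.1% were called lower and 8.59% higher. Slpi, a secreted inhibitor of neutrophil elastase, had 389, 608 and 666 UMIs in Aire+/+ and 45, 68 and 11 in Aire-/- (log2 fold change -2.69, SE 0.40, edgeR adjusted p = 0.000357). The stefins Stfa2 and Stfa3, intracellular cathepsin inhibitors, fell by 4.13 and 1.92 on the log2 scale (edgeR adjusted p = 0.00015 and 4.39e-05). Stfa2 had 50, 58 and 78 UMIs against 1, 0 and 4. Spink5, which restrains epidermal kallikreins, had 96, 79 and 89 UMIs against 10, 20 and 23 (log2 fold change -1.30, edgeR adjusted p = 0.0011). Spink12 also fell (log2 fold change -2.50, edgeR adjusted p = 0.0037), but not by DESeq2 (adjusted p = 0.182). Cstb, cystatin B, a cytosolic cathepsin inhibitor of most cells, rose from 729 ± 68.0 CPM to 1202 ± 218 CPM (SD, n = 3 each, log2 fold change 0.72, edgeR adjusted p = 0.00443). It had 1989, 2284 and 2327 UMIs in Aire+/+ and 1401, 2156 and 1651 in Aire-/-, and its scaled levels did not overlap. Keratinocyte markers, given above, moved with the inhibitors that fell, and their part was not tested.

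**Figure D5:**
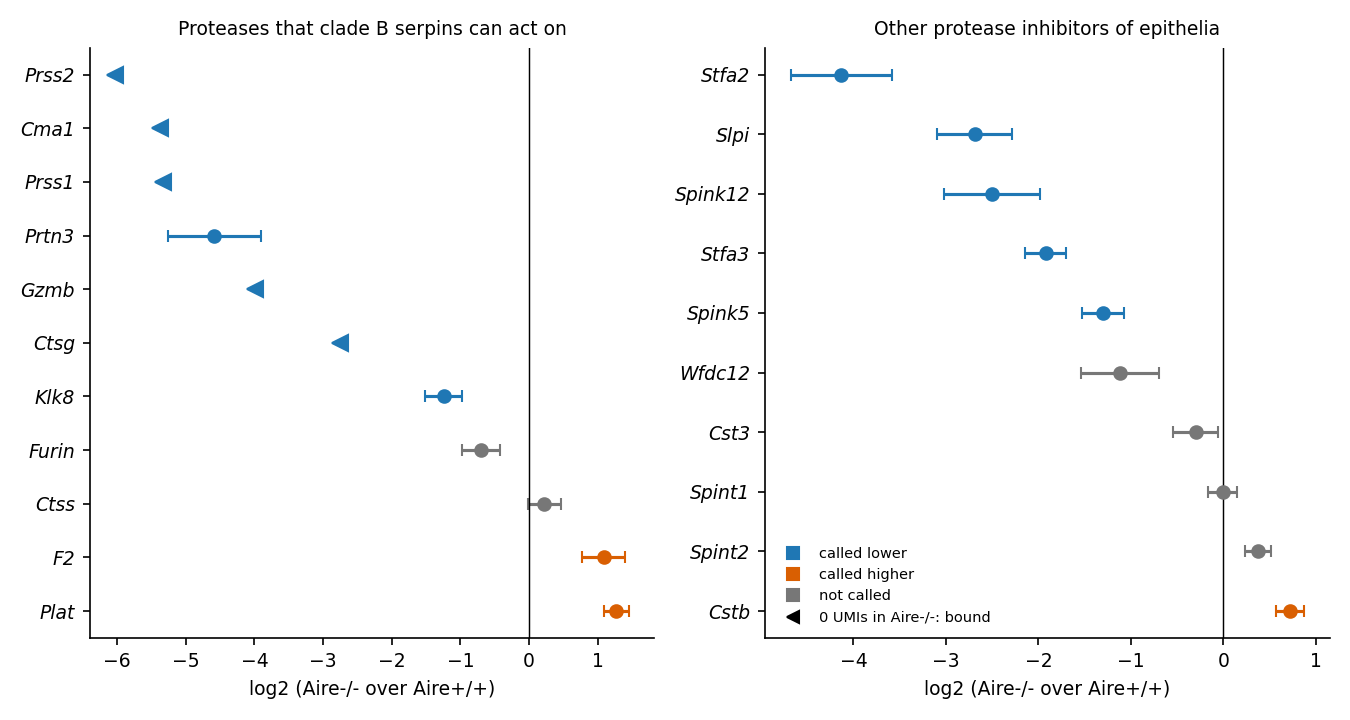
Log2 fold change (x axis, Aire-/- over Aire+/+) of the tested proteases (left) and of the tested inhibitors of other families (right); circles are fitted values with bars of ± 1 SE, triangles are bounds for genes at 0 in Aire-/-, and colours give the edgeR call. Plat, F2 and Cstb are the genes called higher.

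Because the UMI tags come from 3′ ends, they do not show which start a transcript used, but the sequence before the annotated starts can be compared. The 120 bases before the start of the 3 near copies and of Serpinb2 and Serpinb11 are shown as RefSeq gives them for build GRCm38.p6, 5′ to 3′ on the strand of the gene. They are chosen because the Serpinb3 copies and Serpinb11 were lower while Serpinb2 was higher. Capitals mark TATAAA, the core of a TATA box, and TGANTCA (N is any base), the letters bound by AP-1 factors.
Serpinb3a: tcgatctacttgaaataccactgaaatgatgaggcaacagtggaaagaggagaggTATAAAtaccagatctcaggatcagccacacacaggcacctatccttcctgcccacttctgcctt
Serpinb3b: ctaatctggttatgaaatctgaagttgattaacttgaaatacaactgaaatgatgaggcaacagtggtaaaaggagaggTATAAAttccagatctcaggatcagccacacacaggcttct
Serpinb3c: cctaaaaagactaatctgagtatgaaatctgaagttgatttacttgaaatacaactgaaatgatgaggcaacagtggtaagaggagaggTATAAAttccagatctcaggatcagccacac
Serpinb2: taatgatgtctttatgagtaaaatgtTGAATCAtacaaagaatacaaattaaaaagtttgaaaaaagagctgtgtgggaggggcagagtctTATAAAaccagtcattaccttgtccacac
Serpinb11: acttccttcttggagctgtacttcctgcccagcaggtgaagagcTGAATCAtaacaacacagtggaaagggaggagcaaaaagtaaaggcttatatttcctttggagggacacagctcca
These stretches are chr1:107052304-107052423 for Serpinb3a, chr1:107161115-107161234 for Serpinb3b and chr1:107278372-107278491 for Serpinb3c, all on the minus strand, and chr1:107511303-107511422 for Serpinb2 and chr1:107362194-107362313 for Serpinb11 on the plus strand.

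Over the 250 bases before the start, Serpinb3a was 92.5% identical to Serpinb3b (226 aligned bases) and 94.0% identical to Serpinb3c (216 aligned bases). Serpinb2 was 60.0% identical to Serpinb3a over 205 aligned bases. All 3 Serpinb3 copies hold TATAAA, whose first base lies 65, 41 and 31 bases before the annotated start of Serpinb3a, Serpinb3b and Serpinb3c. The stretch around it is nearly the same in all 3, and the annotated starts differ. Serpinb2 holds TATAAA with its first base 29 bases before its start and TGANTCA 94 bases before it. Motifs were searched on both strands of 300-base promoters that run from 250 bases before the start to 50 after it. Of the 9 members, 7 have an entry in that table, with 9 promoters in all. TATAAA was found in 4 of the 7 (Serpinb2, Serpinb3a, Serpinb3c and Serpinb12), against 15.7% of the 27025 genes in the table, counting a gene where any of its promoters holds the motif (13.6% of the 32851 promoters). TGANTCA was found in 4 of the 7 (Serpinb2, Serpinb8, Serpinb11 and Serpinb12), against 9.0% of genes (7.8% of promoters), and GGGCGG, the GC box, in 0 of the 7, against 38.2% of genes (35.7% of promoters). Of the 19 other clade B genes with a promoter, 5 held TATAAA, 3 held TGANTCA and 5 held GGGCGG. The member that was higher and members that were lower share both TATAAA and TGANTCA. In Serpinb12, however, TATAAA began 220 or 201 bases before an annotated start, farther away than in the other members that hold it. These are matches of letters and not shown to be sites.

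Genes outside the family whose levels ran most nearly parallel to a member were listed for the 3 members with the highest mean CPM, as a description over the 6 libraries, which share the split by genotype. For Serpinb1a these were Pdss1 and Rab14, with Pearson r of log2 CPM of 0.998 and 0.995. For Serpinb2 they were Nsmce3 at 0.998 and 4933436H12Rik at 0.997. For Serpinb12 they were Gatad1 and Iars2, both at 0.994. Pdss1 had 34, 20 and 28 UMIs in Aire+/+ and 4, 8 and 11 in Aire-/-, and 4933436H12Rik had 8, 8 and 8 against 26, 30 and 41.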

How the data were processed

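RNA of sorted mTEChi was measured in 6 MARS-seq libraries. All values come from the 1 deposited table, whose headers mark its UMI counts as raw. Its normalized signal (by the authors, counts over 1 size factor per library) and its regularized log2 values (by the authors) were left aside. The log2 fold changes, p-values and selection in it are results of the authors, per the file headers. The submitters' processing notes list, without roles, the build mm10 and the tools STAR 2.4.2a, HTSeq, bcl2fastq, cutadapt and DESeq2. The annotation and the handling of UMIs were not given in the sources used here.

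The genotype contrast was fitted by the quasi-likelihood test of edgeR 4.0.16 in R 4.3.3 on the raw counts of all genes, with TMM scaling, filterByExpr at a min.count of 10, genotype as the only term and Benjamini-Hochberg adjustment over 11956 genes, and called at an adjusted p up to 0.05. CPM are mean ± SD of 3 libraries. All 9 members passed the filter. Genes at 0 in Aire-/- are given as bounds against 3 UMIs over the group. DESeq2 1.42.0, other scalings, other filters and fits without libraries were the alternatives. Libraries of 1 genotype differed by more than counting noise (chi-square per degree of freedom 3.02 to 6.83), and all were kept as replicates. The members, gene lists, marker lists and alternatives were chosen with earlier results of these data known. Every member and every measured clade B gene was named; of the protease, inhibitor and flank lists, the called genes, up to 5 in each direction by p, and the nearest measured flanking genes. Ctsg and Klk8 (beyond the first 5), marker genes, other genes not called or below the filter and the printed sequences were chosen after their values were seen. Coding sequences and positions come from GENCODE M21 (GRCm38) and promoters from RefSeq (GRCm38.p6). Identity was computed on coding DNA in place of protein.
The edgeR step was tested on simulated counts of these libraries.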

Additional observations from a re-analysis of the deposited data

How the results depend on the processing

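No paired analysis was possible because the library numbers differ between the genotypes. Among the tested genes of the family, protease, inhibitor and flank lists, no called gene and none of the 9 members changed direction under the alternatives run. Marker genes and all other genes were not checked for this. In these lists, the fitted value of 10 genes that were not called changed sign in at least 1 setting. The log2 size was then at most 0.25 and the adjusted p at least 0.239. Among these 10 genes were Serpinb9 (0.59 to -0.23), Serpinb1b (0.44 to -0.16) and Ctss (0.22 to -0.23) without 749, Serpinb6a (-0.07 to 0.15) without 746 and Serpinb6b (0.07 to -0.13) with library totals. The count of members called lower, 8 as reported, was 3 to 7 with 1 library left out and 4 without Aire+/+ 753 and Aire-/- 746, with fewer samples and, without 745 or 750, fewer members tested. It was 6 to 8 under the other scalings, filters and DESeq2, and Serpinb2 was called higher in all of them. For other clade B serpins, 1 gene was called lower at a min.count of 3 and with no filter, Serpinb3b (adjusted p = 0.0173 and 0.0355), which the stricter filter leaves untested, and 0 to 1 were called higher with 1 library left out. Library totals as the only scaling moved the median log2 fold change of all genes from -0.02 to -0.22, the share of calls that were lower from 58.5% to 78.3%, the genes called higher from 1027 to 567 and the proteases called higher from 2 to 1. The genes called higher were 652 without 753 and 746 and 618 to 1156 with 1 library left out. With 1 library left out, 1 to 2 proteases and 1 to 2 other inhibitors were called higher. Genes called lower, 1450 as reported, were 1098 to 1899 with 1 library left out and 2142 with no filter. Where no reason is given, the cause was not tested. Of the members' single values, 92 moved by less than the spread between libraries and 12 by more. Of single values of the other tested genes of the family, protease, inhibitor and flank lists, 396 kept their call, 13 lost it and 8 gained it. Serpinb3a, Serpinb3c, Serpinb8, Serpinb9b, Serpinb11 and Serpinb13 had 5 UMIs or fewer in each Aire-/- library, which limits the precision of their values.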
